A study of Mus musculus with 4 samples.

Results

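The mitochondrial carrier family Slc25 was examined in RNA of mouse skeletal muscle. Its members were the protein-coding genes whose symbol starts with Slc25a and a number, and 39 of the 16472 genes in the table met this rule. RNA sequencing was done on 2 libraries of mitochondria isolated from muscle (SM-mito) and 2 libraries of the tissue left after their removal (SM-total). All 4 came from wild-type mice, and the labels name fractionation as the only treatment. The study's methods, written for heart, also treat isolated mitochondria with digitonin and RNase A before RNA extraction; whether SM-mito was treated so was not given in the sources used here, and such a step cannot be told apart from the groups. The age of the mice and the number of animals behind a library were not given in the sources used here. The p-values below therefore measure only the spread between these libraries, which may be technical. The titles of the second group name total tissue while its treatment label names tissue without mitochondria, so the reference of every change may be either.

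Most carriers of this family are small proteins of the inner mitochondrial membrane. They exchange ADP for ATP and pass phosphate, amino acids, carboxylates, carnitine esters, iron and cofactors between cytosol and matrix. They are encoded in the nucleus, translated in the cytosol and inserted through the outer membrane pore and the carrier translocase of the inner membrane. Muscle is rich in the adenine nucleotide and phosphate carriers, because ATP made in the matrix is spent in the sarcomere.

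Several carriers exist as pairs of related genes, so the transcripts of the pairs were compared before their counts were used. The coding sequences of Slc25a4 and Slc25a5, the muscle and the ubiquitous isoform of the adenine nucleotide translocase, are both 894 nt long and 77.4% identical without gaps (GENCODE M21, GRCm38). Their longest identical run is 20 nt, shown here in capitals with 15 bases on each side, because it sets how well a read of 75 nt can be told apart between the isoforms.
Slc25a4: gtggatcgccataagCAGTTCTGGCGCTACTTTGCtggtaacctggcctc
Slc25a5: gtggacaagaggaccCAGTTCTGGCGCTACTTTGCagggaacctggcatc
Both runs lie at bases 322 to 341 of the coding sequence. No stretch of 75 nt differed at fewer than 8 positions between the isoforms. For the aspartate-glutamate carriers Slc25a12 and Slc25a13 the longest identical run was 21 nt, and the fewest differences in 75 nt were again 8.
Slc25a12: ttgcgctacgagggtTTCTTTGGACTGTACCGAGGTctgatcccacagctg
Slc25a13: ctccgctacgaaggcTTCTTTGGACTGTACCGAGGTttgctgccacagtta
Other sequence was shared more closely. Slc25a5 has stretches of at least 95% identity in 3 other genes, the longest being 900 nt at 96.8% identity in the processed pseudogene Gm5529, which held 1 and 2 normalized counts in SM-total and 9 and 0 in SM-mito replicates 1 and 2. Reads that align to several places were left out by the authors, so the counts of Slc25a5 are uncertain to this extent. Such stretches were found for 17 members in all, among them Slc25a12 (247 nt in Adpgk), Slc25a3 (29 other genes), Slc25a20 (111) and Slc25a51 (207). Exons of 12 members overlap another gene, 10 of them on the opposite strand, and the values of these members are uncertain likewise.

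The values are normalized counts, which are gene counts divided by a size factor for each library and rounded. One read was worth 9.05 and 5.06 normalized counts in SM-mito replicates 1 and 2, where whole reads could be recovered, and an estimated 0.142 in SM-total. Nuclear reads, without those of nuclear copies of mitochondrial sequence, numbered 100924 and 181152 in SM-mito and an estimated 11989592 and 11968635 in SM-total, of 42750557, 35305345, 15703984 and 15301803 assigned reads. Replicates correlated across genes with r = 0.709 in SM-mito and 0.983 in SM-total on the log2 scale. Libraries of isolated mitochondria stood apart in their nuclear RNA as well. Myofibre markers were present, and all 9 were lower in SM-mito without overlap between groups, as were 43.7% of all genes tested. Of the 9, 8 had an adjusted p under 0.05 (limma), against 9.3% of genes tested that were called lower. Summed normalized counts of these markers were 46729 and 45567 against 243235 and 253790. The 3 fibroblast markers were higher under the deposited scaling, with 7528 and 14277 against 1131 and 1248. All 3 had an adjusted p under 0.05 (limma), against 7.32% of genes tested that were called higher. The 3 neuronal genes, with Rbfox3 listed at 0 in both SM-total libraries, held 1611 and 1381 against 1 and 2. Liver markers summed to 9465 and 1988 against 215 and 36, endothelial markers to 54 and 80 against 372 and 364, and leukocyte markers to 99 and 111 against 17 and 22. The SM-mito sums come from a fraction and not from whole cells, so they do not count cells. Lower numbers of a cell type and less RNA per cell cannot be told apart in them either.

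As a family, the carriers took a smaller share of nuclear reads in isolated mitochondria than in remaining tissue. Without the nuclear copies of the mitochondrial genome in the total, the 39 genes held 0.348% (95% Wilson interval 0.345 to 0.352) and 0.342% (0.339 to 0.345) of nuclear reads in SM-total, and 0.278% (0.248 to 0.313) and 0.283% (0.260 to 0.309) in SM-mito. In SM-mito these shares rested on 281 and 513 reads. The direction turned when Slc25a4 was left out. The remaining genes together held 0.113% (0.112 to 0.115) and 0.113% (0.111 to 0.115) in SM-total. In SM-mito they held 0.142% (0.120 to 0.167) and 0.142% (0.126 to 0.161), from only 143 and 258 reads. Slc25a4 made up 67.5% (67.0 to 67.9) and 66.9% (66.5 to 67.4) of Slc25a reads in SM-total, and 49.1% (43.3 to 54.9) and 49.7% (45.4 to 54.02) in SM-mito. Neither the family share nor the Slc25a4 share overlapped between the groups. With 2 libraries against 2, the smallest two-sided p of an exact permutation test is 0.333, so these shares cannot pass a threshold of 0.05. As a share of all assigned reads, most of which come from the mitochondrial genome in SM-mito, the family fell from 0.267% to 0.00106%.

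**Figure D1:**
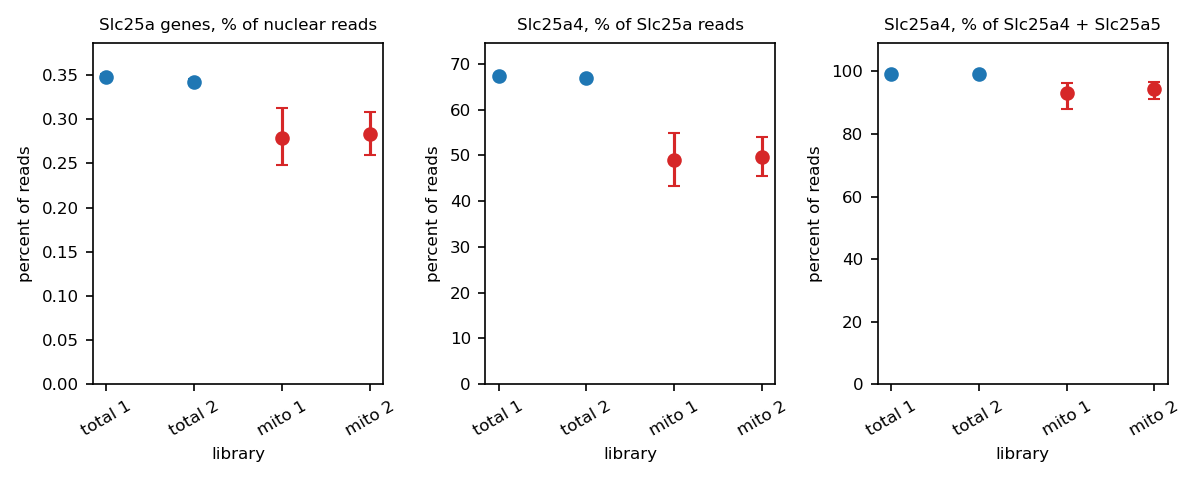
Share of reads (percent, y axis) in each library (x axis) for the whole Slc25a family among nuclear reads, for Slc25a4 among Slc25a reads, and for Slc25a4 among reads of Slc25a4 and Slc25a5; bars are 95% Wilson intervals and cover counting error only. The SM-mito libraries lie below the SM-total libraries in each panel, at 49.1% and 49.7% against 67.5% and 66.9% in the middle one.

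To order the members by abundance, normalized counts were divided by the length of the union of exons. In remaining tissue Slc25a4 stood first with 1675 ± 33.7 normalized counts per kb, 20.7 times the level of the next member. It was followed by the phosphate carrier Slc25a3 (80.8 ± 3.44), the oxoglutarate-malate carrier Slc25a11 (69.8 ± 4.67) and the aspartate-glutamate carrier Slc25a12 (67.0 ± 2.70; SD, n = 2 each). Slc25a11 and Slc25a12 did not differ beyond their spread. A second tier held Slc25a5 (18.5 ± 0.430), Slc25a39 (16.5 ± 0.770), Slc25a51 (13.2 ± 0.257), Slc25a44 (12.6 ± 1.19) and Slc25a33 (10.6 ± 2.25), of which Slc25a51 and Slc25a44 differed by less than the larger of their SDs, as did Slc25a44 and Slc25a33. The members ranked below the first 10 were under 10 normalized counts per kb, down to 0.188 for Slc25a53. In isolated mitochondria Slc25a4 was again first with 540 ± 12.3, 10.7 times the next level, but Slc25a5 came second with 50.4 ± 6.01 (SD, n = 2 each). Of the first 10 members in SM-total, 8 were among the first 10 in SM-mito. Slc25a51 and Slc25a44 were the members that left this group, to ranks 24 and 16.

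**Figure D2:**
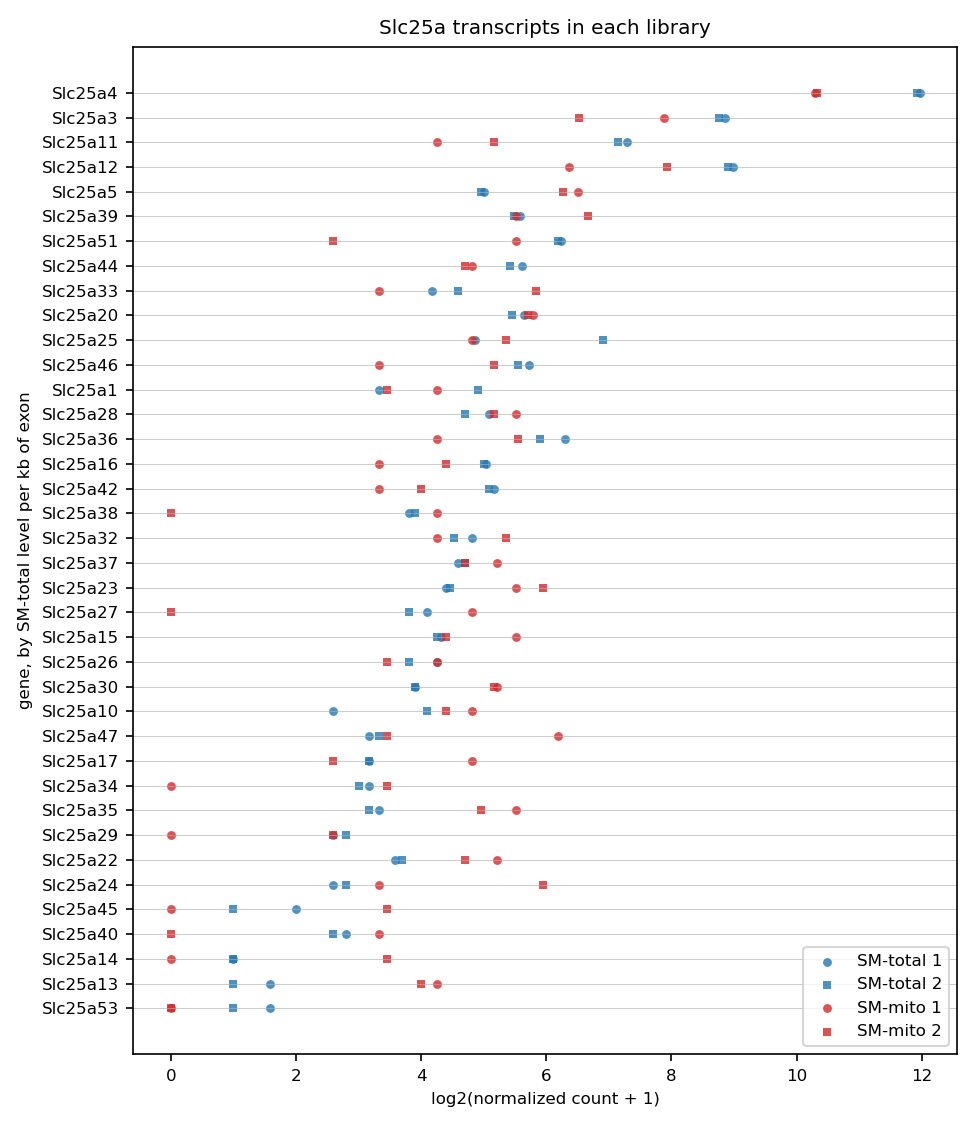
Level of Slc25a transcripts, as log2(normalized count + 1) on the x axis, in each of the 4 libraries; genes are ordered on the y axis by their SM-total level per kb of exon. Points of SM-mito spread more widely than those of SM-total: 21 members differ by over 2-fold between the SM-mito replicates and 3 between the SM-total replicates.

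Differential abundance was tested on log2(normalized count + 1) for the 6916 genes whose 4 libraries averaged 20 or more, with limma and Benjamini-Hochberg adjustment. Fold changes on this scale understate the change of low genes. Of the 39 members 26 were tested. At an adjusted p under 0.05, 2 were lower in isolated mitochondria (Slc25a11 and Slc25a4) and 1 was higher (Slc25a5), against 9.3% of all tested genes called lower and 7.32% called higher. The share of members called was thus near the background. Another 6 members had an unadjusted p under 0.05 (9 in all, limma). The share of all genes tested under this threshold was not taken, so the count says nothing particular about the members. Groups did not overlap for 10 members that were lower and 10 that were higher, against 43.7% and 25.5% of all tested genes. All 26 members tested lay below 0 when libraries were scaled by their sum over all genes, with or without those encoded in mitochondria. Every positive change of a member thus turns under these scalings. The median log2 fold change of the members tested was 0.16, against -0.44 for all genes tested. Of these 26 members, 6 had an SM-total mean under 20 and passed the minimum only through SM-mito (Slc25a15, Slc25a22, Slc25a24, Slc25a30, Slc25a35 and Slc25a47). All 6 were above 0, from 0.67 to 1.99, a direction that this minimum favours. Among the 20 members with an SM-total mean of at least 20 the median was -0.78, close to -0.66 for the 5886 nuclear genes of that kind. Counts of members called moved when single libraries were left out, as did those of all genes tested.

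**Figure D3:**
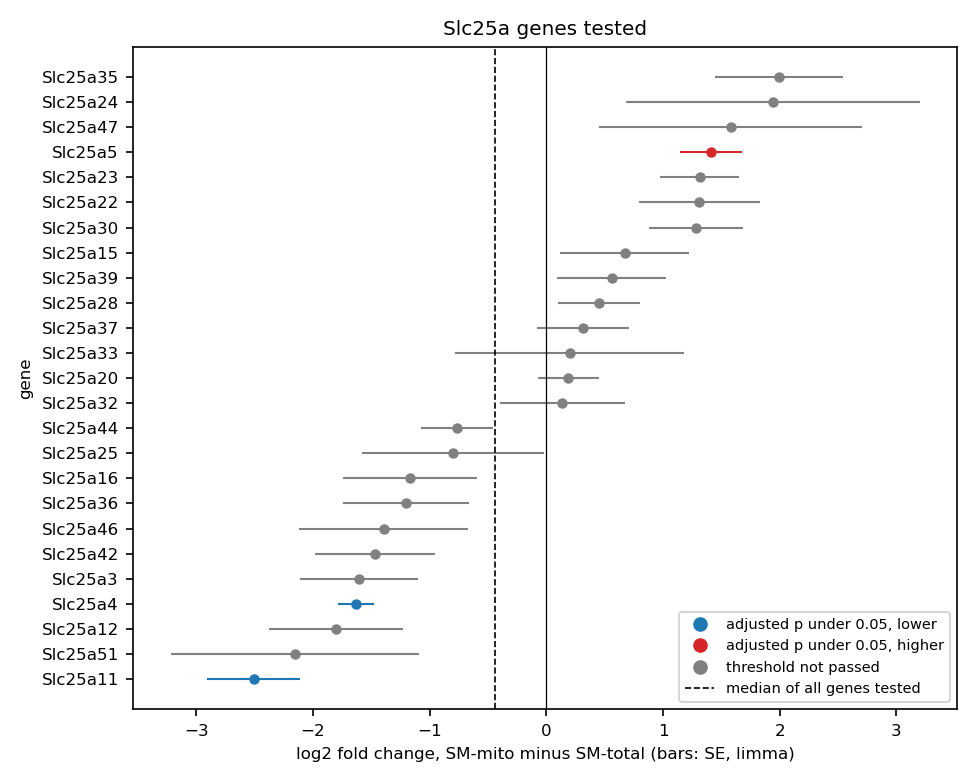
Log2 fold change of SM-mito minus SM-total (x axis) for Slc25a genes tested (y axis), with bars for the SE of the limma fit; the dashed line is the median of all genes tested at -0.44. Slc25a11 and Slc25a4 passed the threshold as lower and Slc25a5 as higher, a direction that turns for Slc25a5 when libraries are scaled by their sum over all genes, with or without those encoded in mitochondria.

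The adenine nucleotide translocases moved in opposite directions. Slc25a4 (ENSMUSG00000031633, chromosome 8, 46206797 to 46211284, minus strand, GRCm38), which exchanges cytosolic ADP for matrix ATP in heart and skeletal muscle, held 3998 and 3886 normalized counts in SM-total and 1249 and 1290 in SM-mito, the latter from 138 and 255 reads. The SM-mito mean was 0.322 times the SM-total mean, and the groups did not overlap. Its log2 fold change was -1.63 (adjusted p 0.0136, SE 0.15, limma), lower in both libraries. The call held in 17 of 17 alternatives (adjusted p 2.72e-30 to 0.0455). Slc25a5 (ENSMUSG00000016319, chromosome X, 36795651 to 36798807, plus strand), the isoform of dividing and most other cell types, held 31 and 30 normalized counts in SM-total and 90 and 76 in SM-mito, or 10 and 15 reads. Both SM-mito libraries were above both SM-total libraries. Slc25a5 rose by a log2 fold change of 1.41 (adjusted p 0.0417, SE 0.27, limma), a direction that turned to -5.28 when libraries were scaled by their sum over all genes and to -1.53 when mitochondrially encoded genes were left out of that sum. Its call as higher held in 10 of 17 alternatives and was lost without SM-total replicate 1 (adjusted p 0.516) or 2 (0.529).

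Scaling moved all genes together, so changes were also taken relative to the median of all genes tested. By this measure Slc25a4 was at -1.19 under the deposited scaling and between -1.95 and -0.95 over all 18 fits, while Slc25a5 was at 1.85 and between 1.53 and 2.09. The ratio of the isoforms does not depend on scaling. Slc25a4 was 129 and 130 times Slc25a5 in SM-total and 13.9 and 16.97 times in SM-mito, a mean log2 ratio of 7.01 ± 0.00446 against 3.94 ± 0.205 (SD, n = 2 each; exact permutation test, two-sided, p = 0.333, the smallest this design allows). Of the reads of both isoforms, Slc25a4 held 99.2% in both SM-total libraries and 93.2% (88.01 to 96.3) and 94.4% (91.04 to 96.6) in SM-mito. Under the deposited scaling, myofibre markers fell and fibroblast markers rose in the same libraries (sums given above). Their part in the isoform ratio was not tested.

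Of the carriers of the malate-aspartate shuttle, which brings reducing equivalents of cytosolic NADH into the matrix, Slc25a11 was lower in isolated mitochondria, and Slc25a12 did not pass the threshold. Slc25a11 (ENSMUSG00000014606, chromosome 11, 70644196 to 70647479, minus strand), which exchanges malate for oxoglutarate, held 155 and 141 normalized counts in SM-total and 18 and 35 in SM-mito, or 2 and 7 reads. The groups did not overlap. It fell by 2.51 on the log2 scale (adjusted p 0.0307, SE 0.40, limma), the lowest value among the members tested. The call held in 13 of 17 alternatives and was lost without SM-total replicate 1 (adjusted p 0.166) or 2 (0.120), at a mean of at least 5 and when scaled to nuclear genes without copies. Exons of Slc25a11 overlap Rnf167 on the opposite strand over 189 nt, and its counts are uncertain there. Slc25a12 (chromosome 2), the calcium-responsive aspartate-glutamate carrier of muscle and brain, held 506 and 478 normalized counts in SM-total and 81 and 243 in SM-mito. Both SM-mito libraries lay below both SM-total libraries but differed from each other by 3 times in value, and the log2 fold change of -1.80 (adjusted p 0.107, SE 0.57, limma) did not pass the threshold. It was called lower in 6 of 17 alternatives, among them edgeR on reads (adjusted p 0.0475). The others were scaling by the sum over all genes, with or without mitochondrially encoded ones, the replicate block and leaving out either SM-mito library. Slc25a12 was not called in edgeR with TMM (adjusted p 0.0694) or DESeq2 (adjusted p 0.0706). Slc25a13, its counterpart in liver, was not tested, with 2 and 1 normalized counts in SM-total and 18 and 15 in SM-mito, which stood for 2 and 3 reads. Of the reads of this pair, Slc25a12 held 99.6% and 99.8% in SM-total against 81.8% (52.3 to 94.9) and 94.1% (84.1 to 98.0) in SM-mito. The difference was larger than the counting interval in both SM-mito libraries, although it rested on 5 reads of Slc25a13.

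Among carriers that supply ATP synthesis with phosphate, the phosphate carrier Slc25a3 (chromosome 10) was the next most abundant member per kb of exon, with 462 and 435 normalized counts in SM-total and 235 and 91 in SM-mito. All SM-mito values were below all SM-total values. Its log2 fold change of -1.61 (adjusted p 0.104, SE 0.50, limma) was close to that of Slc25a4 but did not pass the threshold, and it ranged from -2.29 to -0.93 when single libraries were left out. It was called lower in 6 of 17 alternatives, among them edgeR on reads (adjusted p 0.0413). The others were the same as for Slc25a12. Slc25a3 was not called in edgeR with TMM (adjusted p 0.0763) or DESeq2 (adjusted p 0.135). The calcium-regulated carriers of ATP-Mg and phosphate are Slc25a23, Slc25a24 and Slc25a25. Slc25a23 held 20 and 21 against 45 and 61 normalized counts (log2 fold change 1.31 with an SE of 0.34 and an adjusted p of 0.0735 in limma), without overlap. Slc25a24, the form of many proliferating cells, held 5 and 6 against 9 and 61, with SM-mito replicate 2 standing alone. Slc25a25 was at 28 and 119 in SM-total and 27 and 40 in SM-mito, so that SM-total replicate 2 stood above the other libraries.

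The carrier of the carnitine shuttle and the 4 amino acid carriers tested did not pass the threshold. Slc25a20, which exchanges acylcarnitine for carnitine in fatty acid oxidation, held 49 and 43 normalized counts in SM-total and 54 and 51 in SM-mito (log2 fold change 0.19 with an SE of 0.26 and an adjusted p of 0.623 in limma). Its levels were nearly the same in the 4 libraries under the deposited scaling. Slc25a44, the carrier of branched-chain amino acids into the matrix, held 48 and 42 against 27 and 25 normalized counts, from 3 and 5 reads in SM-mito. The groups did not overlap, and the log2 fold change of -0.77 (adjusted p 0.157, SE 0.31, limma) did not pass the threshold. The glutamate carrier Slc25a22 was at 11 and 12 against 36 and 25, and the ornithine carrier Slc25a15 at 19 and 18 against 45 and 20; neither passed the threshold. The carrier of basic amino acids Slc25a29 and the glycine carrier Slc25a38 were not tested, with 5 and 6 against 0 and 5 normalized counts and 13 and 14 against 18 and 0.

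Cofactor and iron carriers gave values on either side of 0, and none of the 8 tested passed the threshold. The glutathione carrier Slc25a39 held 47 and 44 normalized counts in SM-total and 45 and 101 in SM-mito (log2 fold change 0.56, SE 0.47). The NAD carrier Slc25a51 held 74 and 72 against 45 and 5 (-2.16, SE 1.06), and SM-mito replicate 2 stood for 1 read. These ranges show how little a handful of reads fixes the level of such a gene in isolated mitochondria. Slc25a42, a carrier of coenzyme A, was at 35 and 33 in SM-total and at 9 and 15 in SM-mito, from 1 and 3 reads. Its log2 fold change of -1.47 (adjusted p 0.124, SE 0.51, limma) did not pass the threshold, although the groups did not overlap. Its SM-total mean was 1.61 times the value of 3 reads per library (21.2 normalized counts on average), which sets no bound on the change. The mitoferrins Slc25a28 and Slc25a37, which import iron for heme and iron-sulfur clusters, were at 33 and 25 against 45 and 35 and at 23 and 25 against 36 and 25. Slc25a28 took an estimated 233 of 395 and 176 of 352 of their joint reads in SM-total and 55.6% (26.7 to 81.1) and 58.3% (32.0 to 80.7) in SM-mito, a difference not detectable at this depth. For the pyrimidine nucleotide carriers, Slc25a33 was at 17 and 23 against 9 and 56 and Slc25a36 at 78 and 59 against 18 and 46.

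Members of low abundance in muscle rested on few reads in isolated mitochondria. The highest value among the members tested was that of Slc25a35, a carrier without an assigned substrate, with 9 and 8 normalized counts in SM-total and 45 and 30 in SM-mito, or 5 and 6 reads. Its log2 fold change of 1.99 (adjusted p 0.0832, SE 0.55, limma) did not pass the threshold. The groups did not overlap, but with an SM-total mean of 8.5 Slc25a35 passed the minimum only through SM-mito. Exons of Slc25a35 overlap Rangrf on the opposite strand over 1151 nt, so that its counts are uncertain. The uncoupling protein-like Slc25a30 held 14 in both SM-total libraries and 36 and 35 in SM-mito (log2 fold change 1.28, SE 0.41, adjusted p 0.105, limma). It likewise passed the minimum only through SM-mito. Across the family, 13 members had at most 3 reads in both SM-mito libraries, 8 were at 0 in at least 1 of them, and Slc25a53 was at 0 in both (2 and 1 normalized counts in SM-total), where 3 reads would be 27.1 and 15.2 normalized counts. The 13 members not tested had SM-total means of 1 to 19 and at most 4 reads in a library of SM-mito.

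The change of a member went along with its abundance in tissue, as it did for nuclear genes at large. All 3 members with an SM-total mean of at least 200 and all 5 with a mean of 50 to 200 were below 0, with median log2 differences of -1.63 and -1.20. The medians of nuclear protein-coding genes in the same ranges were -1.43 (n = 704) and -0.81 (n = 2481), and 6.82% and 18.9% of them were above 0. Of the 12 members with a mean of 20 to 50, 8 were above 0 with a median of 0.19, where the median of all 2864 genes in that range was -0.50. Below a mean of 20 the medians of members were 0.25 (8 members, mean of 10 to 20) and 0.53 (11 members), against -0.31 and -0.22 for all nuclear protein-coding genes. The SM-total level enters both quantities, so that a downward trend is partly built in. Levels in the 2 groups correlated across the 39 members with a Spearman coefficient of 0.596 (0.755 over 16418 nuclear genes), as a description of points that share libraries. Longest transcripts and GC content went with the change only weakly, with Spearman coefficients of -0.218 and 0.269 over the 26 members tested, and -0.173 and 0.0522 over 6861 nuclear genes tested.

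**Figure D4:**
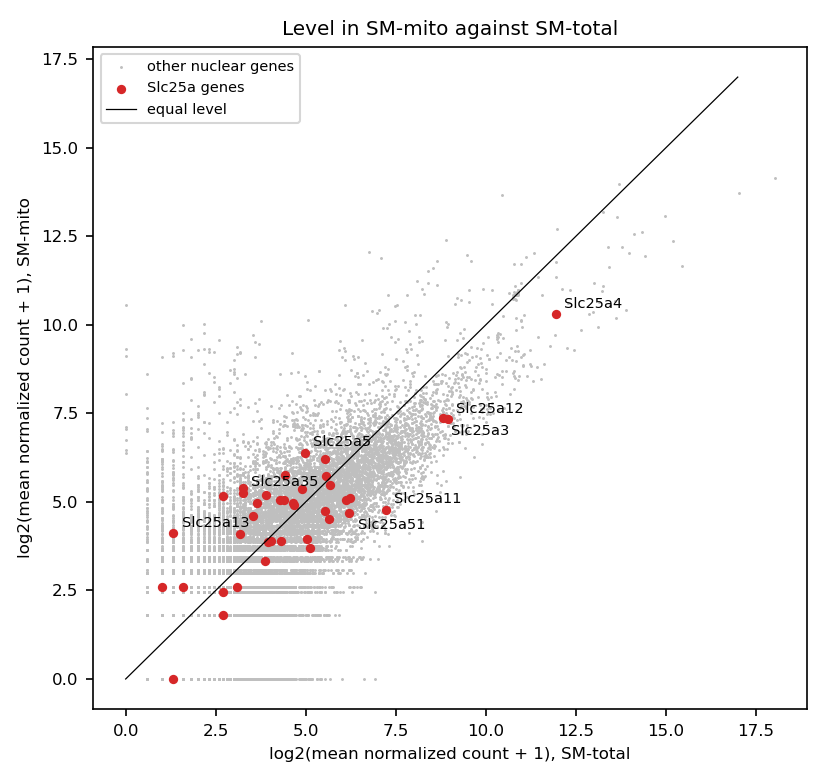
Mean level in SM-mito (y axis) against SM-total (x axis), both as log2(mean normalized count + 1), for 16418 nuclear genes (grey) and the 39 Slc25a genes (red). Abundant carriers lie below the line of equal level, Slc25a4 by the same distance as its log2 fold change of -1.63, and Slc25a5 lies above it under the deposited scaling.

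A few members are set beside markers of other tissues here; they were picked after their values had been seen. The citrate carrier Slc25a1 and the dicarboxylate carrier Slc25a10, both used in fat synthesis, held 9 and 29 and 5 and 16 normalized counts in SM-total replicates 1 and 2, and Slc25a25 held 28 and 119. The 3 adipocyte markers Plin1, Adipoq and Ucp1 summed to 22 and 76 in the same libraries, with Ucp1 at 3 and 0, and to 45 and 60 in SM-mito. There Slc25a1 held 18 and 10 (2 and 2 reads) and Slc25a10 held 27 and 20 (3 and 4 reads), opposite in order to the marker sum. Slc25a25 held 27 and 40 there (3 and 8 reads), in the same order as that sum. So few reads do not settle an order. Slc25a47, a carrier known from hepatocytes, held 8 and 9 normalized counts in SM-total and 72 and 10 in SM-mito, where the liver marker Alb was at 6986 and 1629. In SM-total Alb was at 185 and 30, while Slc25a47 hardly differed. The part of such cells or tissues in these carrier levels was not tested.

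Relatives of the family under other names and the genes that carriers work with were compared as lists. Of the 4 relatives tested, Ucp2, an uncoupling protein of immune and other non-muscle cells, held 14 and 20 normalized counts in SM-total and 81 and 152 in SM-mito and was higher (log2 fold change 2.66 with an SE of 0.44 and an adjusted p of 0.0331 in limma), although it turned to -4.01 when scaled by the sum over all genes and to -0.26 by the sum without mitochondrially encoded ones. With an SM-total mean of 17 it passed the minimum only through SM-mito. Its exons overlap Dnajb13 on the opposite strand over 305 nt. Ucp3, the form of skeletal muscle, was at 67 and 125 against 9 and 46 (-2.09, SE 0.88, adjusted p 0.169). Mtch2, a carrier homologue of the outer membrane that inserts proteins there, fell from 83 and 79 to 18 and 10 (-2.50, SE 0.41, adjusted p 0.0317), whereas its relative Mtch1 was at 45 and 43 against 72 and 142 (1.18, SE 0.41, adjusted p 0.123). In this list both the muscle form of the uncoupling proteins and Mtch2 lay below their SM-total levels in both libraries.

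The outer membrane porins, through which carrier substrates reach the intermembrane space, were all below 0. Their SM-total means were 214 or more. At a mean of at least 200, 6.82% of nuclear protein-coding genes were above 0, with a median of -1.43. Vdac1 (938 and 888 against 271 and 425 normalized counts, log2 fold change -1.42, SE 0.28, adjusted p 0.0435) and Vdac3 (-1.46, SE 0.25, adjusted p 0.0342) passed the threshold, and Vdac2 did not (-1.72, adjusted p 0.0575, limma). Of the genes that import carriers, 8 of 13 were tested, 1 was higher and 0 were lower, with a median of -0.28. The gene called was Timm22, the channel of the carrier translocase, at 19 and 17 normalized counts in SM-total and 208 and 192 in SM-mito, or 23 and 38 reads (log2 fold change 3.40 with an SE of 0.25 and an adjusted p of 0.00849 in limma). Its change turned to -3.35 when scaled by the sum over all genes, but stayed above 0, at 0.46, by the sum without mitochondrially encoded ones. Timm22 shares stretches of at least 95% identity with 6 other genes, the longest of 94 nt. With an SM-total mean of 18 it passed the minimum only through SM-mito, and it was named after its value had been seen. Tomm70a, the receptor for carriers, was at 95 and 93 against 63 and 51 (-0.72, SE 0.25, adjusted p 0.124), and Tomm20 at 64 and 71 against 45 and 61 (-0.36, SE 0.29), and neither passed the threshold.

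Other genes of the same pathways were mostly below 0. Of the 7 other inner membrane transporters tested 1 was lower (Letm1, -1.95, SE 0.30, adjusted p 0.0287, limma) and the subunits of the pyruvate carrier Mpc1 and Mpc2 were at -0.84 and -0.47 without passing the threshold. In the carnitine shuttle, 1 of 3 was lower (Crat, 525 and 490 against 190 and 212, -1.33, SE 0.18, adjusted p 0.0235). All 6 enzymes of the malate-aspartate and glycerol phosphate shuttles were below 0, and the 2 glycerol phosphate dehydrogenases Gpd1 (-1.79, adjusted p 0.0433) and Gpd2 (-1.72, adjusted p 0.0424) passed the threshold. The SM-total means of these 6 genes were 233 or more, and at a mean of at least 200 only 6.82% of nuclear protein-coding genes were above 0. Of 17 genes for ATP synthase and mitochondrial creatine kinase, 3 were lower and 0 higher, with a median of -0.40; Ckmt2, whose protein is fed with ATP by the adenine nucleotide translocase, was at -1.71 (SE 0.19, adjusted p 0.0175). In the tricarboxylic acid cycle 8 of 18 were lower and 0 higher, with a median of -1.10, and groups did not overlap for any of the 18, where 9.3% of all genes tested were called lower and 43.7% were lower without overlap. The SM-total means of these 18 genes were 62.5 or more, a range in which few nuclear genes were above 0 (18.9% at a mean of 50 to 200). The fall of Slc25a4 thus had a size between the medians of the tricarboxylic acid cycle and of the 9 myofibre markers (-1.70), a position given as a description.

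**Figure D5:**
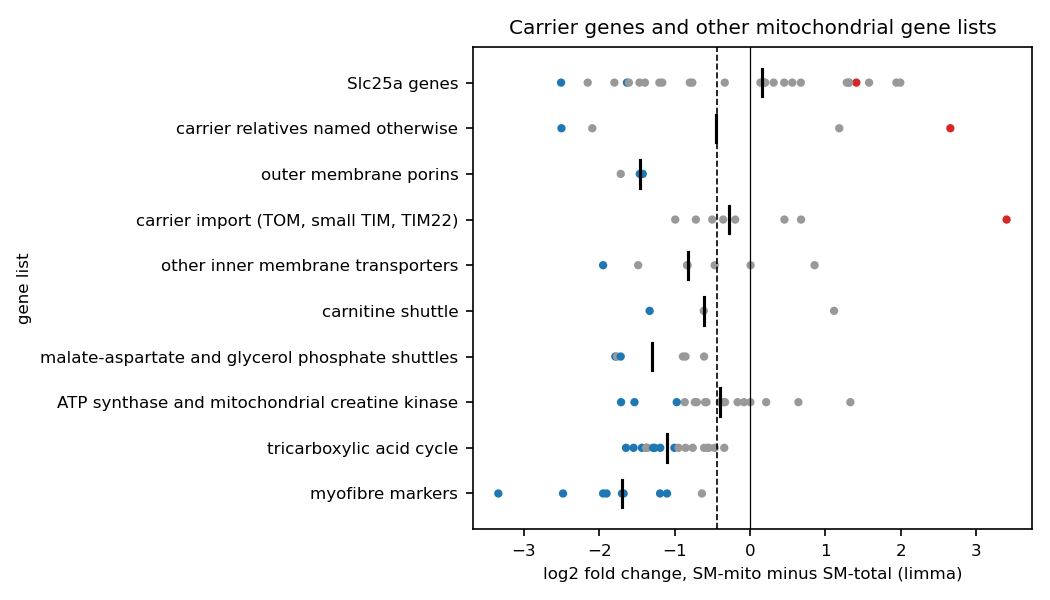
Log2 fold change of SM-mito minus SM-total (x axis) for the tested genes of each list (y axis), with blue points for an adjusted p under 0.05 and lower, red for higher and grey for genes that did not pass; thick bars are medians and the dashed line is the median of all genes tested at -0.44. Slc25a genes spread over both sides of 0, from -2.51 to 1.99, whereas all 18 genes of the tricarboxylic acid cycle lie below 0 under the deposited scaling. The ranges were not compared by a test: 6 of the Slc25a genes above 0 passed the minimum only through SM-mito, whereas the cycle genes had SM-total means of 62.5 or more; the 3 red points (Slc25a5, Ucp2 and Timm22) lie below 0 when libraries are scaled by their sum over all genes.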

How the data were processed

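RNA of mouse skeletal muscle was sequenced in 2 SM-mito and 2 SM-total libraries, grouped and numbered by their titles. Trimming (Trimmomatic), alignment to mm10 (STAR) and exon counting by gene (featureCounts) were done by the authors, who excluded reads of several genes or places. The deposited values are a signal: gene counts divided by a size factor per library and rounded to whole numbers by the authors. The submitters' processing notes name Trimmomatic 0.39, STAR 2.7.10a, featureCounts 2.0.2 and DESeq2 1.30.1; the strand setting of the counting was not given in the sources used here. Mitochondrial libraries were fragmented for an adjusted time, which cannot be told apart from the groups.

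Whole reads were recovered in SM-mito, where 100.0% of 10508 and 11660 low values were whole multiples of 1 step within rounding. For SM-total a common factor of 7.05 reads per normalized count was estimated from the median of ratios over 8993 genes. Intervals are 95% Wilson intervals and cover counting error only: no molecular identifiers were used, and 1 molecule can give several reads.

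limma 3.58.1 (R 4.3.3; trend, two-sided, no covariates) was fitted to log2(normalized count + 1) of genes averaging 20 or more, with Benjamini-Hochberg adjustment over all genes tested and a threshold of 0.05. The 17 alternatives included other scalings, filters, edgeR 4.0.16 and DESeq2 1.42.0 on reads, a replicate block and leaving out each library; the steps were tested on simulated data. Exons were those of GENCODE M21 (16457 of 16472 gene IDs found, 16305 with the same coordinates); shared sequence was searched with BLAST 2.17.0 (at least 50 nt, 90% identity). Nuclear copies were 17 genes with similarity to mitochondrial transcripts (at least 30 nt, 85% identity) over at least 50% of a transcript. Named were the 10 members highest per kb in SM-total, those called, the highest and lowest change, and Slc25a44, Slc25a5, Slc25a31 (not analysed here), Slc25a20, Slc25a29, Slc25a12, Slc25a13, Slc25a28 and Slc25a37. Other members, Timm22 and further partner genes outside the 4 highest of a list were named after their values had been seen. One of the 10 members highest per kb and 1 marker list are not reported here. Members and lists were chosen with earlier results of these data known.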

Additional observations from a re-analysis of the deposited data

How the results depend on the processing

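The call of Slc25a4 as lower held in all 17 alternatives. Counts of Slc25a genes higher and lower (1 and 2 as reported) with those of all genes (506 and 643) moved as follows. They were 3 and 2 (665 and 3026) without a filter, 0 and 1 (283 and 399) at a mean of at least 5, 2 and 2 (619 and 435) with the upper quartile, and 1 and 2 (545 and 417) after quantile normalization. Scaled by the sum over all genes they were 0 and 26 (38 and 6694), by the sum without mitochondrially encoded genes 0 and 22 (114 and 5642), and by nuclear genes without copies 4 and 1 (1107 and 183). They were 1 and 2 (438 and 374) in eBayes without trend, 2 and 4 (940 and 1217) in edgeR, 3 and 2 (1106 and 871) in edgeR with TMM, and 6 and 2 (1408 and 880) in DESeq2. Leaving out 1 library gave 0 to 9 higher and 1 to 9 lower (296 to 1724 and 176 to 3198 of all genes); a group left with 1 library is assumed to vary like the other. Of all calls, 44.0% were higher as reported, 58.7% with the upper quartile, 56.7% after quantile normalization, 0.564%, 1.98% and 85.8% under the sums in the order above, 55.9% in edgeR with TMM and 61.5% in DESeq2. The causes of these moves were not tested, except that scaling shifted the median of all genes, to -6.90, -3.34 and 0.43 under the same sums.

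Replicate numbers are shared between the groups, but nothing says that they mark the same animal, and 2 pairs are too few to decide it. Same-numbered libraries deviated together with a correlation of 0.141 over 6916 genes. With a replicate block 0 Slc25a genes were higher and 5 lower (630 and 1144 of all genes), the latter adding Slc25a3 (adjusted p 0.00164), Slc25a12 (0.000573) and Slc25a51 (0.0172) to Slc25a4 and Slc25a11, and Slc25a5 had an adjusted p of 0.0545 (limma).

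The median of Slc25a genes minus that of all genes was 0.60 and lay between 0.21 and 0.61 over the alternatives. As reported, it includes the 6 members that passed the minimum only through SM-mito. At an SM-total mean of at least 20 the medians were -0.78 for members and -0.66 for nuclear genes. The family share moved from 0.345% (SM-total) and 0.281% (SM-mito) to 0.267% and 0.00106% of all assigned reads, to 0.340% and 0.0193% of reads not from mitochondrially encoded genes, and to 0.113% and 0.142% without Slc25a4. Of the first 10 members per kb, 8 remained when the longest transcript was used. All 14 positive members turned under scaling by the sum over all genes and by that without mitochondrially encoded ones, among them Slc25a5 (-5.28 and -1.53), Slc25a39 (-6.06 and -2.37), Slc25a33 (-5.90 and -2.57), Slc25a20 (-6.42 and -2.74), Slc25a28 (-6.08 and -2.45), Slc25a37 (-6.13 and -2.57) and Slc25a35 (-4.42 and -0.84), and when scaled to nuclear genes without copies for Slc25a44 (0.10). Without SM-mito replicate 2 signs turned for Slc25a39 (-0.015) and Slc25a33 (-1.06), and without SM-total replicate 1 for Slc25a33 (-0.0076). With 1 library left out these genes ranged from -0.015 to 1.13 and from -1.06 to 1.46. Depth in SM-mito limits most members: the median member had 3 and 5 reads there.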
